A study of Homo sapiens with 24 samples.

Results

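GNLY encodes granulysin, and TRAC encodes the constant region of the T cell receptor alpha chain. These 2 genes, of 60617 in the count table, were chosen by their measured levels, since they are known from lymphocytes and yet were abundant in a myeloid cell line, so those levels are given as a description with no test. That both were lower after PTPN6 knockdown in wild-type cells was also known when they were picked, so that difference is described with its size and carries no p-value. For the same reason no p-value is given for the members in the interaction of genotype and knockdown or among cells with the hairpin, since both use the low WT_shPTPN6 values. Their other 3 contrasts were tested; 2 of these share the WT_shCTRL libraries with the knockdown in wild type.

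Granulysin is a small saposin-like protein that cytotoxic T cells and natural killer (NK) cells store in their secretory granules beside perforin and granzymes, and it permeabilises the membranes of microbes and target cells. The alpha chain pairs with a beta chain and with CD3 subunits to make the receptor by which T cells recognise peptides on MHC molecules. Its variable part is assembled by the RAG recombinase from V and J segments, which are then spliced to TRAC, while unrearranged loci can also give transcripts that hold TRAC without a V segment. Macrophages are not known as major producers of either protein.

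The cells were THP1, an established human monocytic leukaemia line, matured to macrophages with the phorbol ester PMA at 10 ng/ml for 48 hours and kept a further 48 hours without it. The study crossed the genotype of CD33, an inhibitory Siglec receptor, with knockdown of PTPN6, the gene of the phosphatase SHP-1 that such receptors recruit. WT_shCTRL was wild type with empty pLKO.1, WT_shPTPN6 was wild type with a hairpin against PTPN6, CD33KO_shCTRL was CD33 knockout with the empty vector, and CD33KO_shPTPN6 was CD33 knockout with the hairpin. All 4 groups had been exposed to lentivirus for 24 hours and selected with 1 µg/ml puromycin, so no group was free of vector, and the control vector carried no hairpin. A single hairpin was used, and the labels do not say whether the knockout was a single clone. There were 6 libraries in each group except CD33KO_shPTPN6, with 5 (replicate 2 was not analysed here). The labels do not say whether replicates were separate cultures, so the p-values measure only the spread between these libraries, which may be technical.

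The libraries read the 3' ends of polyadenylated RNA, which gives about 1 read per transcript whatever its length, so levels can be set side by side between genes. Levels are CPM, the counts of a gene divided by those of its library in the 13098 genes tested and put on the usual per-1e6 scale, with libraries scaled by the trimmed mean of M-values (TMM). Library totals ran from 3318001 to 6269304 in the wild-type groups and from 2024032 to 3749258 in the knockout groups. Differences between groups are log2 with a standard error (SE) from edgeR's quasi-likelihood test, whose p-values were adjusted by Benjamini-Hochberg over all 13098 genes with a threshold of 0.05. The targets moved as labelled: CD33 was at 45.5 ± 3.24 CPM (SD, n = 6) in WT_shCTRL and 20.2 ± 2.45 (n = 6) in CD33KO_shCTRL, and PTPN6 was at 44.6 ± 6.24 (n = 6) in WT_shCTRL and 10.6 ± 1.45 (n = 6) in WT_shPTPN6. CD33 also rose after the PTPN6 hairpin in wild type, to 88.8 ± 5.33 CPM (n = 6), by 0.97 ± 0.07 (log2, SE; adjusted p 4.95e-23, edgeR). A deletion need not remove the 3' end of a transcript, so the remaining CD33 counts say little about the protein.

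The following sequences bear on what follows. The hairpin's target is shown because GNLY was lower in wild-type cells that carried it. The stretch before the RefSeq start of GNLY is shown because lymphoid transcription factors were measured in the same libraries. In the window, capitals mark a match to TGTGGT, a core that RUNX factors bind.
PTPN6 hairpin target: cgacatgctcatggagaacat
GNLY upstream window: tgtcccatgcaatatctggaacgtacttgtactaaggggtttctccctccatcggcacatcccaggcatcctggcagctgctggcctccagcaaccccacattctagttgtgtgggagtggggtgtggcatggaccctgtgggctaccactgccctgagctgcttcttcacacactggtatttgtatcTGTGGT

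The hairpin target of 21 bases occurred in full in 7 transcripts of 206694 in GENCODE release 29, all of them of PTPN6. Its longest run shared with any GNLY transcript was 8 bases, and with the TRAC transcript also 8 bases. Shared runs were not counted over other transcripts, and whether the hairpin acts on GNLY or TRAC directly was not tested. The window is the stretch chr2:85694108-85694301 on the plus strand of GRCh38.p14, taken from RefSeq, and it is the first 194 of the 250 bases that lie before the RefSeq start of GNLY. Its last 11 bases, which hold the marked TGTGGT, lie within a GENCODE transcript of GNLY that starts at 85694291. Another GENCODE transcript of GNLY runs from 85685175 to 85696730, so the whole window lies within its span. Over the 250 bases, both strands, 7 motifs were searched: TGTGGT for RUNX, CCGGAA for ETS, GAGGAAG for PU.1, GGTGTGA for T-box factors, TGANTCA for AP-1, AGATAA for GATA and TATAAA for the TATA box. TGTGGT was found, on the plus strand 62 bases before the start, and the other 6 were not. Of 35116 promoter windows of the same length, 11% held TGTGGT.

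GNLY (ENSG00000115523) lies at chr2:85685175-85698854 on the plus strand of GRCh38, with 14 annotated transcripts in GENCODE release 29. TRAC (ENSG00000277734) lies at chr14:22547506-22552154, also on the plus strand, with 1 annotated transcript of 4 exons. No exon of another annotated gene overlaps an exon of either on either strand.

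GNLY was the more variable of the pair. In WT_shCTRL it ranged from 293 to 395 CPM with a median of 353, and its mean of 349 ± 34.1 CPM (SD, n = 6) put it at rank 370 among the 13098 genes tested. In CD33KO_shCTRL it ranged from 509 to 587 CPM with a median of 552 and a mean of 550 ± 27.9 (SD, n = 6), at rank 223. The 2 groups did not overlap: the lowest knockout library was above the highest wild-type library.

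In WT_shPTPN6, GNLY was at 6.83 to 10.2 CPM with a median of 9.26 and a mean of 8.87 ± 1.22 (SD, n = 6), which is rank 9270. The 6 libraries held 25 to 56 GNLY counts each, where the WT_shCTRL libraries held 1629 to 2091. Every library of this group was far below every library of the other groups. In CD33KO_shPTPN6 the 5 libraries, replicates 1, 3, 4, 5 and 6, stood at 252, 266, 271, 273 and 260 CPM, with a mean of 264 ± 8.44 (SD, n = 5) and rank 627. The order of the groups was CD33KO_shCTRL, WT_shCTRL, CD33KO_shPTPN6 and WT_shPTPN6 from high to low, and no neighbours in that order overlapped.

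**Figure D1:**
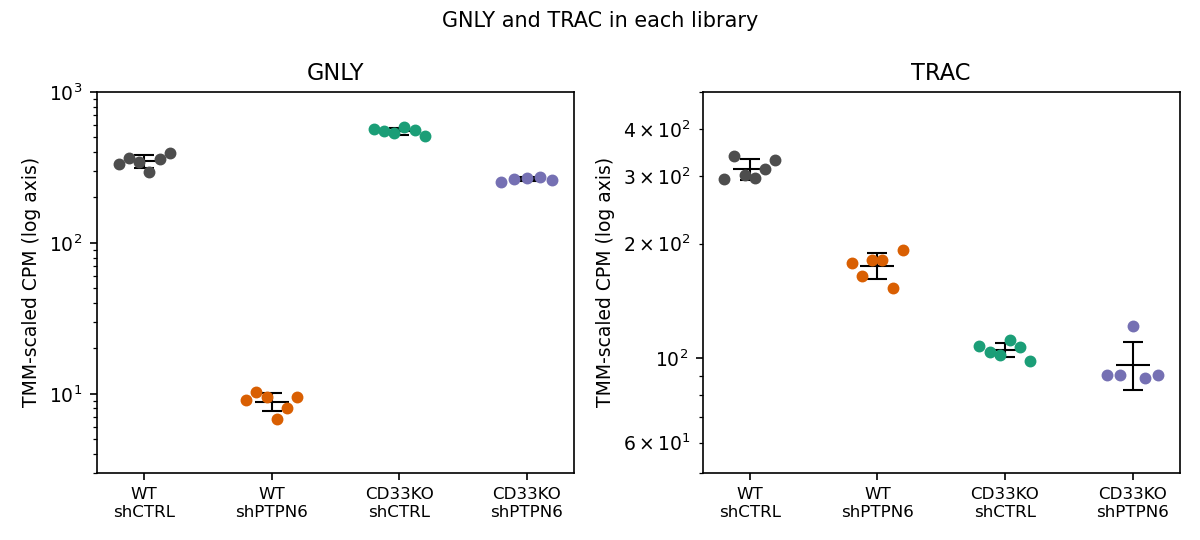
Level of GNLY (left) and TRAC (right) in each library, in TMM-scaled CPM on a log axis that differs between the panels; points are libraries, horizontal bars with whiskers are group means ± SD. The 4 GNLY groups do not overlap and WT_shPTPN6 lies between 6.83 and 10.2 CPM; for TRAC the CD33 knockout groups overlap, with 1 CD33KO_shPTPN6 library at 121 CPM.

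TRAC followed a different order. In WT_shCTRL it ranged from 295 to 340 CPM with a median of 308 and a mean of 313 ± 19.1 (SD, n = 6), at rank 435 and near the level of GNLY in the same libraries. In WT_shPTPN6 it ranged from 153 to 193 CPM with a median of 180 and a mean of 175 ± 14.1 (SD, n = 6). Here every library held far more TRAC than GNLY, whose levels were close to each other in WT_shCTRL.

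In CD33KO_shCTRL, TRAC ranged from 98.6 to 111 CPM with a median of 105 and a mean of 105 ± 4.48 (SD, n = 6). In CD33KO_shPTPN6 the values of replicates 1, 3, 4, 5 and 6 were 90.4, 90.5, 121, 88.7 and 90.4 CPM, with a mean of 96.2 ± 14.0 (SD, n = 5). Replicate 4 was above all the CD33KO_shCTRL libraries and the other 4 were below all of them. WT_shCTRL, WT_shPTPN6 and the knockout groups thus formed 3 separate levels of TRAC, and the knockout groups did not separate from each other. In bulk RNA, fewer cells that express a gene and less RNA per cell cannot be told apart.

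CD33 knockout moved the members in opposite directions. With the empty vector, GNLY rose by 0.66 ± 0.05 (log2, SE), or 1.58-fold, with an adjusted p of 1.3e-23 in edgeR's test, and was higher in 6 of 6 knockout libraries than in any wild-type library. TRAC fell by 1.57 ± 0.06 (log2, SE), a 2.98-fold difference, with an adjusted p of 5.03e-47 in edgeR's test. Over all genes tested 56.7% were called in this contrast, 28.3% as higher and 28.4% as lower, and 34.1% had groups that did not overlap, so that a call here is common. By size, 26.8% of the genes tested differed more than GNLY and 7.71% more than TRAC. Two-sided exact permutation tests of log2 CPM gave p = 0.00216 for each member, the smallest value that 6 against 6 libraries allow.

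PTPN6 knockdown in wild-type cells went with lower levels of both. GNLY differed by -5.28 ± 0.08 (log2, SE), which left 2.57% of its WT_shCTRL level, and it ranked 14th by size of change among the 13098 genes. TRAC differed by -0.83 ± 0.05 (log2, SE), a 1.78-fold lower level, and 18.5% of genes differed more. The groups did not overlap for either member, as for 37.4% of all genes. Of all genes 60.6% were called in this contrast, 30.4% as lower. These are the differences known when the genes were picked.

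In CD33 knockout cells the same hairpin went with a smaller difference in GNLY and none detected in TRAC. GNLY fell by 1.06 ± 0.05 (log2, SE), or 2.08-fold, with an adjusted p of 7.12e-34 in edgeR's test (exact permutation p = 0.00216, the smallest for 6 against 5). TRAC differed by -0.13 ± 0.07 (log2, SE), with a 95% interval from -0.27 to 0.02 and an adjusted p of 0.162 in edgeR's test (exact permutation p = 0.13). Of all genes 42.1% were called here, 21.6% as lower, and 24.2% did not overlap. The TRAC value rested on replicate 4 of CD33KO_shPTPN6: without that library it was -0.22 with an adjusted p of 0.0127, and with library totals in place of TMM it was -0.21 with 0.0101 (both edgeR). PTPN6 itself was at 37.7 ± 3.88 CPM (SD, n = 6) in CD33KO_shCTRL and 7.41 ± 2.75 (n = 5) in CD33KO_shPTPN6, so the hairpin's target was low in both genotypes.

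Among cells with the PTPN6 hairpin, GNLY was 29.5-fold higher with CD33 knockout, a difference of 4.88 ± 0.08 (log2, SE). TRAC differed there by -0.87 ± 0.07 (log2, SE). The groups did not overlap for either member, as for 37.2% of all genes, and 56.5% of all genes were called in this contrast, 27.5% as lower. Thus the knockout's direction was up for GNLY and down for TRAC with either vector. This contrast and the knockdown in wild type share the WT_shPTPN6 libraries, so both rest on the same values that were known when the genes were picked, and these differences are a description.

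Cells with both changes, set against WT_shCTRL, differed by -0.40 ± 0.05 (log2, SE) in GNLY and by -1.70 ± 0.06 in TRAC, with adjusted p of 1.68e-10 and 2.47e-46 in edgeR's test. Of all genes 63.8% were called, 32.1% as higher and 31.7% as lower, and 45.7% did not overlap. For GNLY the 2 single differences summed to -4.63 on the log2 scale, and for TRAC to -2.41. Both members were therefore higher in the doubly changed cells than that sum, GNLY by 4.22 ± 0.10 (log2, SE) and TRAC by 0.71 ± 0.09. These interaction values contain the wild-type knockdown difference known when the genes were picked, so they carry no test. Over all genes 28.4% were called in the interaction, 14.5% as higher. In CPM the knockdown difference of GNLY was -341 in wild type and -286 in the knockout, while for TRAC it was -138 and -8.86, so the genotypes differ less for GNLY on the linear scale than on the log2 scale.

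**Figure D2:**
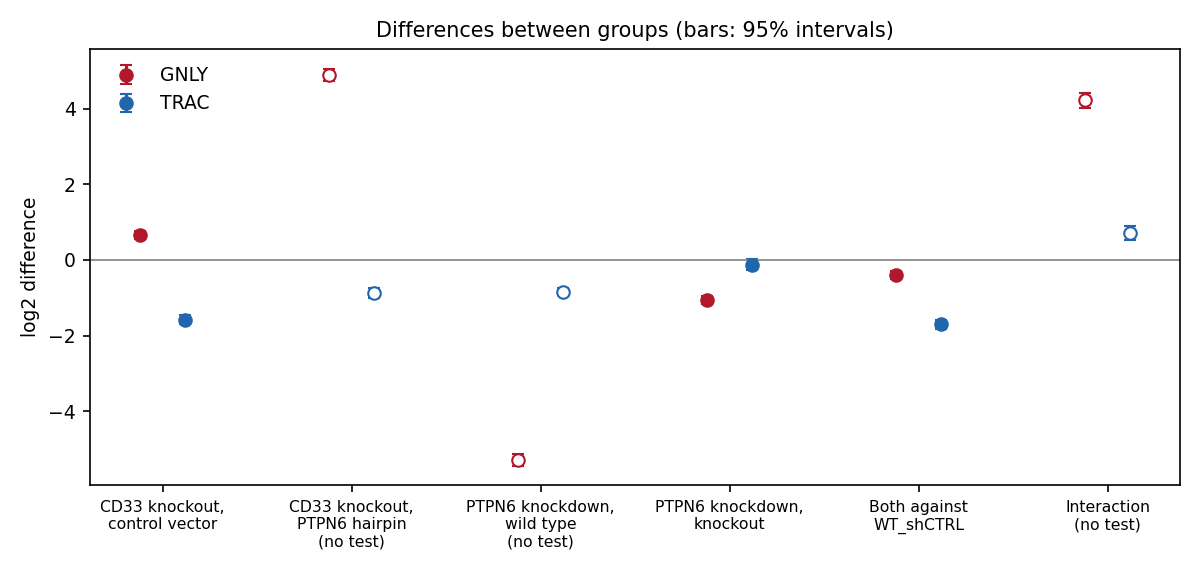
Log2 differences of GNLY and TRAC in 5 contrasts between groups and in the interaction, which is the wild-type knockdown difference subtracted from that in the knockout; whiskers are 95% intervals, and open circles mark the contrasts in which the members carry no test. GNLY is at -5.28 for the knockdown in wild type and -1.06 in the knockout, and TRAC at -0.83 and -0.13.

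Other proteins of cytotoxic granules were a mixed set in these cells. Of 14 such genes besides GNLY, 6 passed the filter on low counts: the pore protein perforin (PRF1), the granule membrane protein NKG7, the proteoglycan serglycin (SRGN), cathepsins W (CTSW) and C (CTSC), and the lysosomal membrane protein LAMP1. The granzymes did not: GZMA, GZMB, GZMH, GZMK and GZMM had 52, 75, 4, 6 and 7 counts in all 23 libraries, out of 81845004. SRGN, CTSC and LAMP1 are also made by macrophages. This list of 14 genes and the lists below were drawn up with earlier results of these data known. Their counts are therefore a description and do not test a shared pattern.

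After knockdown in wild type, 4 of the 6 fell and 1 rose, against 30.4% and 30.2% of all genes, and the median of the 6 was -0.61 (log2) against 0 over all genes. CTSW, a protease of cytotoxic lymphocytes, ranged from 20.0 to 32.2 CPM in WT_shCTRL (median 29.1) and from 3.24 to 4.92 in WT_shPTPN6 (median 3.95), with no overlap. It fell by 2.79 ± 0.15 (log2, SE; adjusted p 2.23e-34, edgeR). In the knockout it ranged from 29.3 to 43.2 CPM without the hairpin and from 13.5 to 18.0 with it, a fall of 1.10 ± 0.14 (adjusted p 1.99e-10, edgeR), and its interaction was 1.69 ± 0.22 (adjusted p 2.22e-10, edgeR). An exon of CTSW overlaps one of FIBP on the opposite strand, and whether reads were counted by strand is not given in the sources used here, so its values are uncertain.

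PRF1, which forms the pores through which granzymes enter, held few reads: 81 counts in WT_shCTRL, 3 in WT_shPTPN6, 36 in CD33KO_shCTRL and 5 in CD33KO_shPTPN6. No library with the hairpin held more than 2 PRF1 counts, so it passed the filter on low counts through libraries with the empty vector. Its place among the 4 that fell is therefore built into the filter and is a description. CTSC, the protease that activates granzymes, was at 534 ± 18.8 CPM (SD, n = 6) in WT_shCTRL and 263 ± 13.0 in WT_shPTPN6, a fall of 1.02 ± 0.07 (log2, SE; adjusted p 6.69e-12, edgeR). SRGN, which packs granule proteins, went the other way and rose by 0.74 ± 0.05 (log2, SE; adjusted p 6.08e-29, edgeR). LAMP1, counted among the 4 that fell, differed little, at 385 ± 19.6 CPM in WT_shCTRL and 336 ± 15.7 in WT_shPTPN6 (n = 6 each). Its difference was -0.20 ± 0.05 (log2, SE; adjusted p 0.000116, edgeR). NKG7 was not called, at 0.08 ± 0.24 (log2, SE; adjusted p 0.799, edgeR). In the knockout with the empty vector 2 of the 6 rose and 1 fell, against 28.3% and 28.4% of all genes. After knockdown in the knockout, PRF1 and CTSW were the 2 of 6 called, both lower, where 21.6% of all genes were called lower. The call of PRF1 is again tied to the filter. The count was 1 without replicate 1, 3 or 6 of WT_shCTRL or replicate 4 of CD33KO_shCTRL, and 4 without replicate 1 of CD33KO_shPTPN6. PRF1 was called in all 24 alternatives that tested it and CTSW in all 31. The count of 1 thus means that PRF1 no longer passed the filter.

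**Figure D3:**
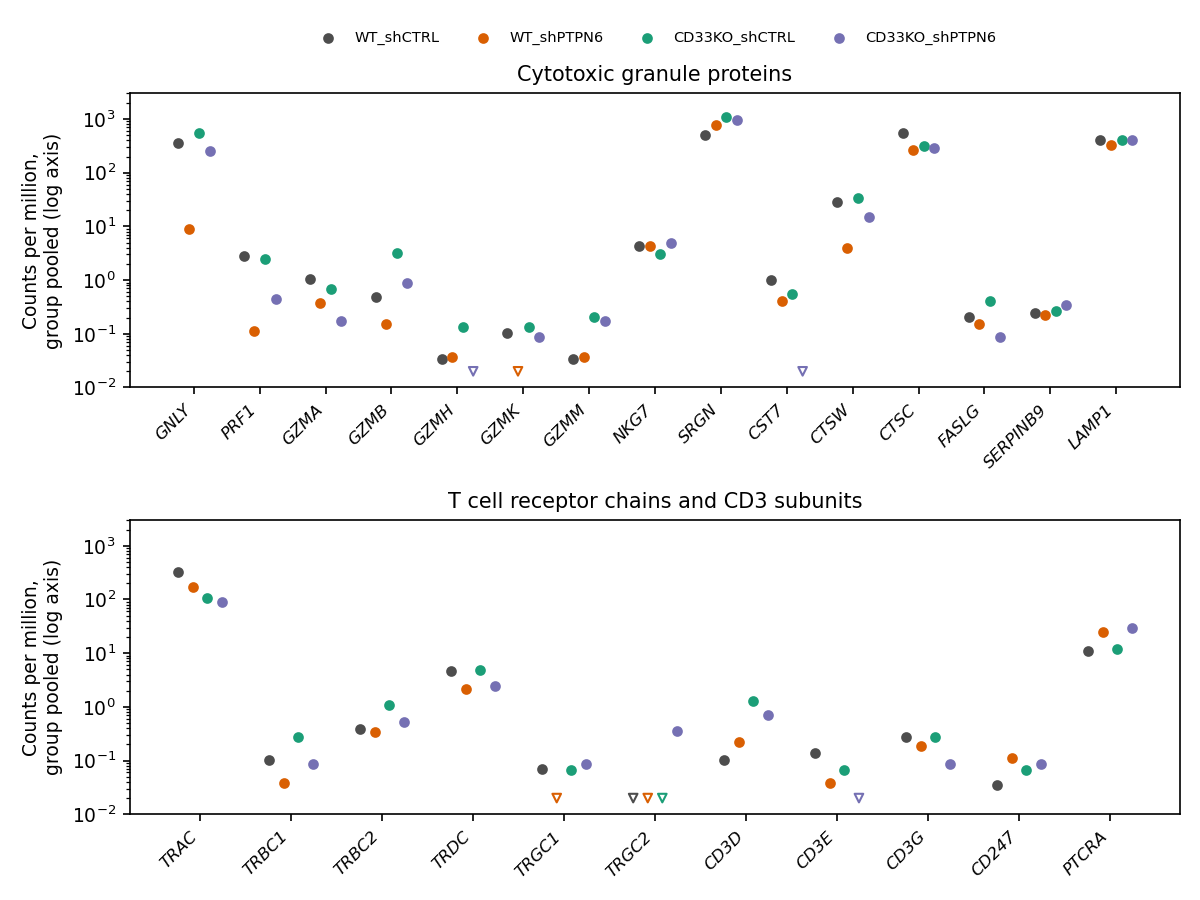
Counts pooled over the libraries of each group as CPM of their totals, without TMM, on a log axis, for cytotoxic granule proteins (top) and for T cell receptor chains and CD3 subunits (bottom); open triangles mark 0 counts in a group. In every group GNLY lies above the granzymes and TRAC above the other receptor chains, of which PTCRA and TRDC passed the filter on low counts.

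The machinery that moves and fuses such granules, which macrophages share, was present throughout: all 10 listed genes passed the filter. After knockdown in wild type 6 rose and 2 fell, against 30.2% and 30.4% of all genes, with a median of 0.21 (log2) against 0. VAMP8, a vesicle fusion protein, was at 297 ± 18.5 CPM in WT_shCTRL and 432 ± 19.9 in WT_shPTPN6 (SD, n = 6 each), a rise of 0.54 ± 0.05 (log2, SE; adjusted p 1.11e-19, edgeR). Of the saposin-like relatives of granulysin, 3 of 5 passed the filter. After knockdown in wild type 1 of the 3 rose and 1 fell, against 30.2% and 30.4% of all genes. All 3 rose in the knockout with the empty vector, as did 28.3% of all genes. PSAP, the precursor of the lysosomal saposins, was at 1839 ± 85.6 CPM in WT_shCTRL and 2829 ± 153 in WT_shPTPN6 (SD, n = 6 each), and rose by 0.62 ± 0.04 (log2, SE; adjusted p 6.25e-26, edgeR). SMPD1, the acid sphingomyelinase, was higher in CD33KO_shCTRL than in WT_shCTRL by 1.25 ± 0.08 (log2, SE; adjusted p 5.03e-26, edgeR). PSAPL1, with 110 counts in all and reads in 13 libraries, differed by -2.74 ± 1.14 after knockdown in wild type (log2, SE). It differed by 4.39 ± 0.49 in the knockout with the empty vector. In cells with both changes against WT_shCTRL it was higher by 3.64 ± 0.59, where GNLY was lower. PSAPL1 passed the filter on low counts through the knockout groups, where it was high. Its values, and its place among the 3 that rose, are therefore a description and carry no p-value. The number of the 3 called after knockdown in wild type, 2, ran from 1 to 3 over the alternatives.

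Few reads were found for the partners of TRAC. Of 10 other receptor chains and CD3 subunits, 2 passed the filter: PTCRA, the surrogate alpha chain of early thymocytes, and TRDC, the delta constant region. The beta constant regions TRBC1 and TRBC2, whose near-identical sequences can split reads between them, had 9 and 42 counts in all 23 libraries. CD3D, CD3E, CD3G and CD247, which carry the receptor to the surface and signal for it, had 36, 6, 18 and 6. TRAC had 9420 counts in the 6 WT_shCTRL libraries alone.

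PTCRA ran opposite to TRAC after knockdown. It was at 10.6 ± 2.06 CPM in WT_shCTRL and 25.2 ± 3.61 in WT_shPTPN6 (SD, n = 6 each), a rise of 1.26 ± 0.13 (log2, SE; adjusted p 6.58e-16, edgeR), and rose by 1.42 ± 0.16 in the knockout (adjusted p 1.6e-13, edgeR). TRDC, which shares its locus with TRAC, was at 4.47 ± 0.71 CPM in WT_shCTRL and 2.18 ± 0.48 in WT_shPTPN6 (SD, n = 6 each), a fall of 1.03 ± 0.28 (log2, SE; adjusted p 0.000867, edgeR). Its exons overlap those of TRD-AS1 on the opposite strand, so its reads may be shared.

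The segments that a rearranged alpha chain would carry were nearly unread. The 54 TRAV rows of the table held 5 counts in all 23 libraries, and the 60 TRAJ rows held 173, of which 91 were in TRAJ20. Reads of the 3' end seldom reach the V and J parts of a transcript, so these low counts say little about rearrangement. Of the recombination genes, RAG2 and DNTT were at 0 counts in all 23 libraries. RAG1, the catalytic subunit of the recombinase, ranged from 4.99 to 14.4 CPM in WT_shCTRL. In WT_shPTPN6 it ranged from 0 to 0.90 CPM, with 12 counts in all, a difference of -4.08 ± 0.36 (log2, SE). In CD33KO_shCTRL it ranged from 1.32 to 3.21 CPM, 1.94 ± 0.30 lower on the log2 scale than WT_shCTRL. The libraries of WT_shCTRL held 24 to 64 RAG1 counts and those of CD33KO_shCTRL 3 to 9. RAG1 thus passed the filter on low counts through WT_shCTRL, where it was high. Its lower levels in the other groups are therefore a description and carry no p-value.

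T cell receptor signalling genes split. Of 20 listed, 10 passed the filter, and LCK, the kinase that starts the signal, had 1 count in all 23 libraries and ZAP70 had 19. After knockdown in wild type 5 of the 10 fell and 2 rose, against 30.4% and 30.2% of all genes, with a median of -0.41 (log2) against 0. LCP2, the adaptor SLP-76 that macrophages also use, was at 184 ± 6.35 CPM in WT_shCTRL, 85.6 ± 4.39 in WT_shPTPN6 and 317 ± 22.7 in CD33KO_shCTRL (SD, n = 6 each). It fell by 1.10 ± 0.05 after knockdown and rose by 0.79 ± 0.05 in the knockout (log2, SE; adjusted p 4.43e-37 and 2.27e-28, edgeR). These 2 directions were those of GNLY. In cells with both changes against WT_shCTRL, LCP2 was higher by 0.29 ± 0.05 (adjusted p 1.48e-06, edgeR), where GNLY was lower. FYB1, an adaptor that binds SLP-76, rose by 1.23 ± 0.06 after knockdown and fell by 3.31 ± 0.11 in the knockout (adjusted p 1.6e-35 and 1.44e-49, edgeR).

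Transcription factors of the T lineage were mostly read. Of 14 listed, 12 passed the filter; 7 fell and 2 rose after knockdown in wild type, against 30.4% and 30.2% of all genes, with a median of -0.60 (log2) against 0 over all genes. EOMES, a T-box factor of cytotoxic T and NK cells, ranged from 42.2 to 46.6 CPM in WT_shCTRL (median 44.7) and from 3.55 to 7.39 in WT_shPTPN6 (median 5.90), with no overlap. It fell by 3.02 ± 0.13 (log2, SE; adjusted p 9.09e-39, edgeR). In the knockout it ranged from 25.3 to 52.3 CPM without the hairpin and from 8.59 to 15.3 with it, and fell by 1.62 ± 0.16 (adjusted p 9.02e-16, edgeR); its interaction was 1.40 ± 0.23 (adjusted p 2.92e-07, edgeR).

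Of the RUNX factors, whose core motif lies in the printed GNLY window, RUNX3, a factor of cytotoxic lymphocytes, was higher in each changed group: 201 ± 7.34 CPM in WT_shCTRL, 282 ± 12.9 in WT_shPTPN6 and 392 ± 11.3 in CD33KO_shCTRL (SD, n = 6 each), and 685 ± 25.1 in CD33KO_shPTPN6 (n = 5). It rose by 0.49 ± 0.05 after knockdown and by 0.97 ± 0.05 in the knockout (log2, SE; adjusted p 2.7e-17 and 3.64e-37, edgeR). RUNX1, a factor of blood progenitors with the same core motif, went the other way: it fell by 0.79 ± 0.07 after knockdown in wild type, by 0.33 ± 0.07 in the knockout and by 0.44 ± 0.08 in cells with both changes against WT_shCTRL (log2, SE; adjusted p 3.5e-19, 3.28e-05 and 8.55e-07, edgeR). Its level was 82.1 ± 3.63 CPM in WT_shCTRL and 47.4 ± 4.87 in WT_shPTPN6 (SD, n = 6 each). ETS1, a factor active early in T and NK cells, fell by 1.01 ± 0.06 after knockdown in wild type and by 0.52 ± 0.06 in the knockout (adjusted p 1.71e-32 and 2.14e-11, edgeR). MYB, which is needed in progenitors, fell by 1.62 ± 0.11 after knockdown in wild type and was 0.93 ± 0.12 lower in the knockout (adjusted p 7.7e-25 and 1.58e-11, edgeR). Thus the factors did not share a single pattern over the groups.

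Most lymphocyte markers held few reads, and some were abundant. Of 20 T cell markers 5 passed the filter and the other 15 were under 1 CPM over the pooled libraries, the CD3 subunits among them; of 17 NK cell markers 4 passed and the other 13 were under 1 CPM. None was at 0 in all libraries. Over all genes of a list, summed levels of T cell markers ran from 104 to 129 CPM (WT_shCTRL), 42.9 to 52.6 (WT_shPTPN6), 76.6 to 91.7 (CD33KO_shCTRL) and 31.5 to 40.7 (CD33KO_shPTPN6). Most of that in WT_shCTRL was IL7R, the interleukin-7 receptor, at 97.4 to 122 CPM; it fell by 1.39 ± 0.07 after knockdown in wild type and by 1.24 ± 0.11 in the knockout (log2, SE; adjusted p 1.01e-34 and 1.32e-17, edgeR). Summed NK cell markers ran from 247 to 285 CPM (WT_shCTRL), 196 to 228 (WT_shPTPN6), 417 to 516 (CD33KO_shCTRL) and 514 to 526 (CD33KO_shPTPN6). NCAM1, the adhesion molecule CD56, held most of this at 212 ± 11.6 CPM in WT_shCTRL and 398 ± 29.1 in CD33KO_shCTRL (SD, n = 6 each), a rise of 0.91 ± 0.05 (log2, SE; adjusted p 1.32e-33, edgeR). It was the 1 NK cell marker of 4 that rose in that contrast; KIR2DL4, an NK cell receptor with 76 counts in WT_shCTRL and 4 in CD33KO_shCTRL, and EOMES were called lower, and the median of the 4 was -0.35 (log2), where 28.3% of all genes were called higher and 28.4% lower. The EOMES call, -0.26 with an adjusted p of 0.0302 (edgeR), was lost without replicate 1, 3, 4 or 5 of CD33KO_shCTRL. Of 12 B cell markers 6 passed, among them IGKC, the kappa light chain, with 2913 counts in all 23 libraries. Summed B cell markers ran from 37.4 to 78.8 CPM (WT_shCTRL), 45.8 to 92.2 (WT_shPTPN6), 52.3 to 234 (CD33KO_shCTRL) and 46.6 to 138 (CD33KO_shPTPN6).

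Myeloid markers were plentiful, as the label of the line states: 13 of 14 passed the filter, and the granule enzyme MPO, with 8 counts in all, did not. Their summed level ran from 3106 to 3557 CPM (WT_shCTRL), 4703 to 5118 (WT_shPTPN6), 2040 to 2308 (CD33KO_shCTRL) and 3816 to 4027 (CD33KO_shPTPN6). The order of these ranges is the reverse of the order of GNLY: 12 of 13 rose and 1 fell after knockdown in wild type, against 30.2% and 30.4% of all genes. In the knockout with the empty vector 3 rose and 8 fell, against 28.3% and 28.4%. In cells with both changes, set against WT_shCTRL, 5 were higher and 7 lower, against 32.1% and 31.7% of all genes. Their median there was -0.38 (log2) although the summed level was higher, so the order of the sums is not that of most of these genes. Of 12 epithelial and HEK cell markers, listed because the virus was packaged in HEK-293FT cells, 3 passed. Their list's summed levels ran from 48.0 to 67.2 CPM (WT_shCTRL), 66.2 to 105 (WT_shPTPN6), 107 to 141 (CD33KO_shCTRL) and 92.0 to 114 (CD33KO_shPTPN6). After knockdown in wild type 1 of the 3 rose and 2 fell, against 30.2% and 30.4% of all genes. The median of the 3 was -1.48 (log2) there, so these sums do not follow most of the tested genes. The share of reads in ribosomal protein genes was 5.74% to 6.77% in WT_shCTRL and 8.49% to 8.78% in WT_shPTPN6, and in the knockout groups 4.18% to 4.42% without the hairpin and 6.86% to 7.26% with it. The share in mitochondrial genes was 5.86% to 6.54% in WT_shCTRL and 7.85% to 8.70% in WT_shPTPN6, and in the knockout groups 6.53% to 7.13% without the hairpin and 6.36% to 6.55% with it. The part of these differences in the values of GNLY and TRAC was not tested.

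The genes that lie near each member were compared next. Within 200 kb of GNLY 9 of 17 annotated genes were tested, and 3 rose and 1 fell after knockdown in wild type, against 30.2% and 30.4% of all genes, where GNLY was lower by 5.28 (log2). The largest difference downward was ATOH8, a helix-loop-helix factor gene, at -0.45 ± 0.27 (log2, SE; adjusted p 0.141, edgeR). In the knockout with the empty vector 5 of the 9 rose and 1 fell, against 28.3% and 28.4% of all genes; ATOH8 rose by 1.27 ± 0.24 (adjusted p 2.27e-06, edgeR) and VAMP8 fell by 0.34 ± 0.05 (adjusted p 2.93e-09, edgeR).

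Around TRAC 81 genes were annotated within 200 kb, most of them receptor segments, and 4 were tested. All 4 fell after knockdown in wild type, as did 30.4% of all genes: TRD-AS1, an antisense transcript of the delta locus, by 1.76 ± 0.12, ABHD4, a lipid hydrolase gene, by 1.26 ± 0.09, TRDC by 1.03 ± 0.28 and DAD1, a subunit of the oligosaccharyltransferase, by 0.42 ± 0.05 (log2, SE; adjusted p 2.17e-26, 2.57e-23, 0.000867 and 1.25e-12, edgeR). In the knockout with the empty vector 3 of the 4 fell, against 28.4% of all genes, TRD-AS1 by 3.88 ± 0.18, ABHD4 by 0.62 ± 0.10 and DAD1 by 0.19 ± 0.05 (adjusted p 1.96e-38, 2.61e-08 and 0.00109, edgeR). Among cells with the PTPN6 hairpin, where TRAC differed by -0.87 (log2) with CD33 knockout, 2 of the 4 were higher and 1 lower. There ABHD4 differed by 0.61 ± 0.12, DAD1 by 0.31 ± 0.06 and TRD-AS1 by -2.03 ± 0.24 (adjusted p 6e-06, 5.66e-07 and 3.48e-12, edgeR). After knockdown in the knockout only TRDC was called, at -0.90 ± 0.36 (adjusted p 0.0384, edgeR), where 21.6% of all genes were called lower. TRD-AS1 was at 42.3 ± 4.51 CPM in WT_shCTRL, 12.7 ± 1.76 in WT_shPTPN6 and 2.84 ± 0.89 in CD33KO_shCTRL (SD, n = 6 each), and 2.95 ± 2.18 in CD33KO_shPTPN6 (n = 5), which is the order of TRAC over the first 3 groups. Like TRAC, it was not called between the knockout groups, at 0.10 ± 0.35 (log2, SE; adjusted p 0.846, edgeR), a value that was -0.02 without CD33KO_shCTRL replicate 2 and -0.39 without CD33KO_shPTPN6 replicate 6.

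**Figure D4:**
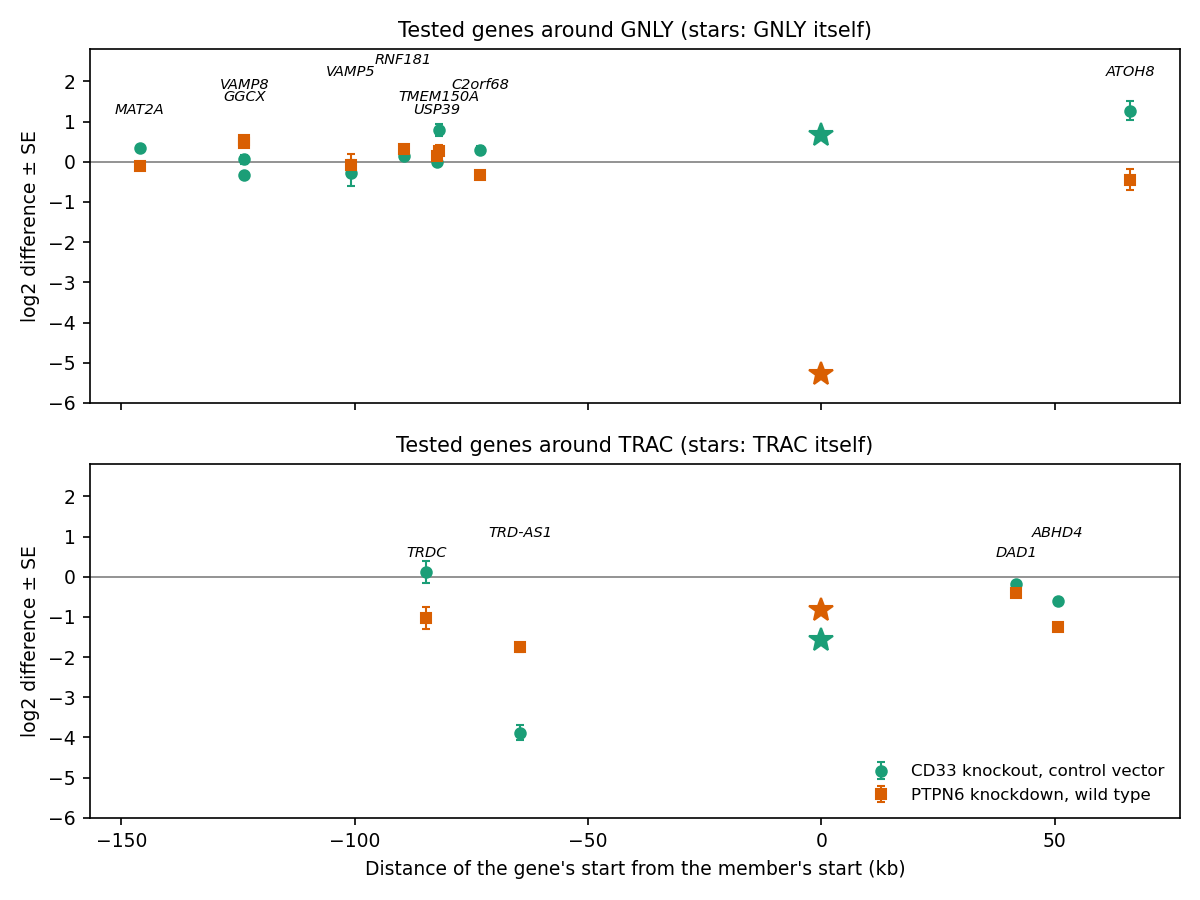
Log2 differences ± SE of the tested genes within 200 kb of GNLY (top) and TRAC (bottom), against the distance of each gene's start from the member's start in kb; stars are the members. Circles are CD33 knockout with the control vector and squares PTPN6 knockdown in wild type. The neighbours of GNLY lie between -0.45 and 1.27, and all 4 tested neighbours of TRAC are below 0 for the knockdown.

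To see which genes had a similar pattern, the mean log2 CPM of each group was centred on the mean of the 4 groups and compared by the root mean square difference over 10893 genes with a mean of at least 5 CPM and a symbol. The closest to GNLY were the transcription factor gene KLF5 (0.46), the collagenase gene MMP1 (0.49), the protease inhibitor gene SERPINE2 (0.79) and the noncoding ERICD (0.83) and LINC00472 (0.88), where the median of all genes was 2.34. MMP1 was at 121 ± 7.32 CPM in WT_shCTRL, 6.01 ± 1.52 in WT_shPTPN6, 356 ± 21.7 in CD33KO_shCTRL and 231 ± 20.3 in CD33KO_shPTPN6 (SD, n = 6, 6, 6 and 5). KLF5 was at 65.2 ± 2.36, 1.82 ± 0.62, 58.4 ± 8.33 and 37.2 ± 1.62 CPM in the same order. With the empty vector it thus lacked the higher level of GNLY in the knockout. Among cells with the hairpin KLF5 was higher in the knockout, as GNLY was. None of the 5 is a lymphoid gene of the lists used here.

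The closest to TRAC were much closer: the calcium-binding protein gene S100A4 (0.035), the phosphatase gene CTDSPL (0.060), the membrane glycoprotein gene EMB (0.063), NFATC2 (0.085), which encodes a calcineurin-regulated factor of lymphocytes, and TREM2 (0.089), a lipid receptor of macrophages and microglia; the median of all genes was 0.72. S100A4 was at 4979 ± 519, 2900 ± 103, 1638 ± 131 and 1543 ± 112 CPM in WT_shCTRL, WT_shPTPN6, CD33KO_shCTRL and CD33KO_shPTPN6 (SD, n = 6, 6, 6 and 5). TREM2 was at 608 ± 41.2, 392 ± 13.9, 211 ± 12.3 and 184 ± 12.2 CPM in that order. These genes were selected for their likeness over the same 4 means, so their values are a description.

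**Figure D5:**
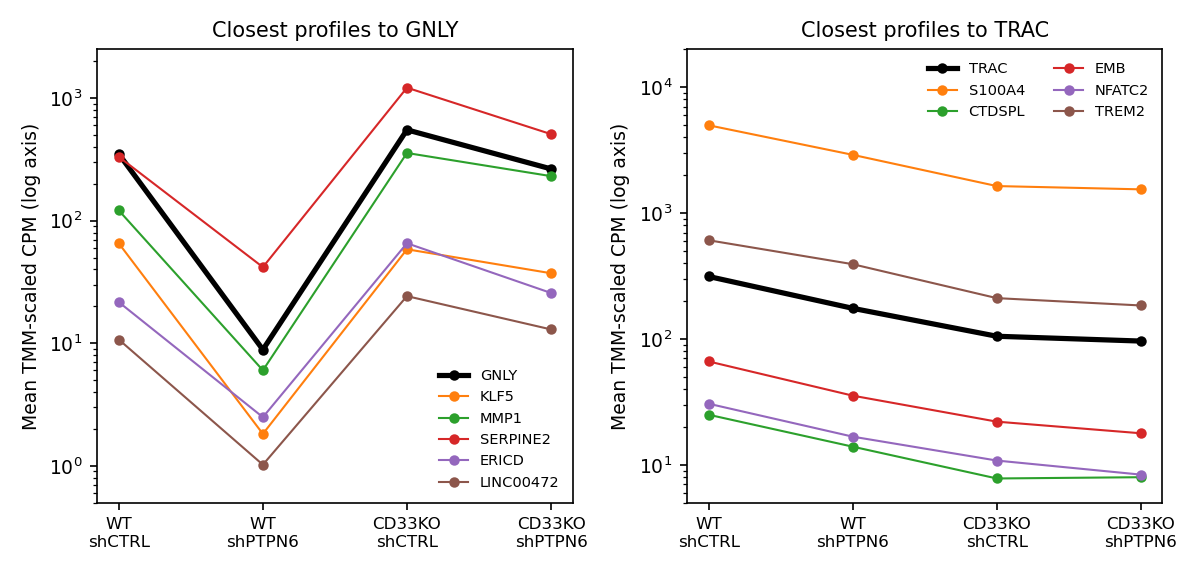
Mean TMM-scaled CPM (log axis) of GNLY and the 5 genes of closest pattern (left), and of TRAC and its 5 (right), in the 4 groups; lines join the groups of a gene and do not show a course. On the left all genes are lowest in WT_shPTPN6, and on the right all are highest in WT_shCTRL.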

How the data were processed

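RNA of 24 labelled THP1 libraries was counted, and 23 columns were used (CD33KO_shPTPN6 replicate 2 was not analysed here). The authors deposited unnormalized read counts for every gene and library. Tools in the submitters' processing notes are DESeq2 1.26.0, R 3.6.1, Subread 2.0.0 with featureCounts, STAR 2.7.3a and bcl2fastq, and the build is hg38, without roles; annotation release and strand setting are not given in the sources used here. Libraries were made from 100 ng of RNA per the labels' protocols.

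Of 60617 identifiers 60261 (99.41%) matched a symbol. With R 4.3.3 and edgeR 4.0.16, genes were filtered by filterByExpr (13098 kept) and scaled by TMM, and 1 robust quasi-likelihood model (a term for each group) covered all libraries, with Benjamini-Hochberg adjustment at 0.05. The SE is the absolute log2 difference over the square root of F, and intervals are 95% from that SE. Log2 CPM used a prior count of 2. Positions came from GENCODE release 29 and sequences from RefSeq or the labels; the promoter table held GNLY and not TRAC. The members carry no p in the interaction or among cells with the hairpin, though both had been planned as tests, because these contrasts use values known when the genes were picked. The fit was tested on simulated counts. Alternatives were DESeq2 1.42.0, other scalings and filters, fits of single pairs of groups, a replicate block and left-out libraries. The members, 12 gene lists and tests were chosen with earlier results of these data known. Named genes were the members, the targets, list genes, tested neighbours and the 5 of closest pattern per member. Replicate pairs differed by more than sampling noise (genes with at least 10 counts in the pair, chi-square per degree of freedom 1.50 to 3.75).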

Additional observations from a re-analysis of the deposited data

Results flagged for a closer look

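The TRAC level of CD33KO_shPTPN6 replicate 4, 121.188 CPM, stood apart from the other 4 libraries of its group, at 88.7 to 90.5 CPM, by a gap that was most of the group's range (Dixon's test at 95%). Chance marks about 1 in 20 groups in this way, and 8 groups were examined. That library was an extreme of this kind in 159 of 13098 genes (1.21%), against 132 to 154 genes in the others of its group. Its GNLY level, 271 CPM, lay within the range of the rest.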

How the results depend on the processing

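The number of genes called in each of the 6 contrasts stayed within 1.5 times its main value under every alternative run. In the 3 contrasts tested for the members, direction and call were kept in 183 of 186 comparisons with an alternative. In the other 3 contrasts, which carry no test, all 184 values kept their direction and moved by less than 1 SD of the replicates. The exceptions were all TRAC after knockdown in the knockout (-0.13, adjusted p 0.162): -0.21 with library totals, -0.22 without CD33KO_shPTPN6 replicate 4 and -0.23 without 3 libraries (that replicate, CD33KO_shCTRL replicate 2 and WT_shCTRL replicate 4), with adjusted p of 0.0101, 0.0127 and 0.0139 (edgeR). Leaving out single libraries gave -0.22 to -0.10, and adjusted p ran from 0.0101 to 0.397 over all its alternatives. The set of 3 libraries was chosen after seeing the data, replicate 4 for its TRAC value. Of 2729 values of other named genes 2695 kept direction and call. The calls lost under some alternatives were CTSW and EOMES in the knockout with empty vector, NCAM1 after knockdown in wild type, RAG1 and TRDC after knockdown in the knockout, and RAG1 in the interaction. TRD-AS1 after knockdown in the knockout, not called, turned from 0.10 to -0.02 without CD33KO_shCTRL replicate 2, -0.39 without CD33KO_shPTPN6 replicate 6 and -0.089 without the 3 libraries, and leaving out single libraries gave -0.39 to 0.38. Of 2220 list counts under alternatives 88 moved by over 1.5 times. Library totals in place of TMM shifted the median of all genes by -0.14 (log2) for both changes against WT_shCTRL, where 3209 genes were higher and 5258 lower instead of 4204 and 4152, and gave 1999 and 3623 instead of 2685 and 2827 for the knockdown in the knockout. Replicate numbers did not pair the libraries (same-number correlations -0.049 to 0.032 over 33 pairs); with the number as a replicate block 7362 genes were called for the knockout with empty vector instead of 7428, and 5400 instead of 5512 for the knockdown in the knockout. Between 25 and 56 counts per WT_shPTPN6 library limit the precision of GNLY there.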
